A study of Mus musculus with 24 samples.

Results

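The genes described here are 10 genes of the ATF4 and amino acid response: the regulators Atf4, Ddit3 and Trib3, the synthesis enzymes Asns, Psat1 and Phgdh, the transporters Slc7a5 and Slc7a11, and the effectors Sesn2 and Chac1. They were chosen by name, with earlier results of these libraries in view, from the 55487 genes of the count table, and they were followed through all 8 groups of the study. All 10 passed the filter on low counts, which kept 17139 genes. Because they were named with results in view, their fold changes and adjusted p-values describe the size of a difference against the spread between libraries, and no count of them is used as support for anything else.

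The RNA came from microglia-enriched cells of male mice aged 8 to 10 weeks, taken from frontal cortex or striatum with magnetic beads against CD11b, a surface protein of microglia and other myeloid cells. The offspring were controls or came from maternal immune activation (MIA), in which the immune system of the dam is stimulated during pregnancy. The agent given to the dams is not stated in the sources used here. Each mouse received saline or lipopolysaccharide (LPS, a component of bacterial outer membranes that activates innate immune cells) by intraperitoneal injection at 4500 endotoxin units per gram, 18 hours before the cells were collected. Region, prenatal history and treatment define 8 groups of 3 libraries: control cortex saline, control cortex LPS, control striatum saline, control striatum LPS, and the same 4 for MIA. All groups shared the perfusion, the removal of the meninges, the enzymatic digestion at a warm temperature and the bead sort. MIA striatum LPS replicate 3 carries a mark of exclusion in its title, so 23 libraries were compared and that group had 2.

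ATF4 is a transcription factor whose synthesis rises when the initiation factor eIF2 is phosphorylated, for example by GCN2 when amino acids run short or by PERK when proteins misfold in the endoplasmic reticulum. This control acts largely on translation of the Atf4 messenger RNA, so the level of that RNA need not follow the activity of the protein. Its target genes encode enzymes that make amino acids, transporters that bring them into the cell, and proteins that feed back on the response or on cell growth. In macrophages and microglia, serine and glutathione metabolism are known to be remodelled during innate activation.

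ATF4 binds DNA with partners of the C/EBP family at a composite element, written here as TGATGNAA and searched on both strands, so that it also reads TTNCATCA. RefSeq promoter windows of build GRCm38.p6 (250 bases before the gene start and 50 bases after it) were found for 9 of the 10 genes. The element was present in 4 of the 9, before the start in Asns, Chac1 and Slc7a11 and after it in Trib3, and it was present in 3.97% of all 32817 windows of the same length. The stretches around the matches before the start are shown because they carry the letters of this element. They read 5′ to 3′ on the strand of the gene, with the element in capitals.
Asns, chr6:7693210-7693248, minus strand: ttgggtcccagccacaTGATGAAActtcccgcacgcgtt
Chac1, chr2:119351033-119351072, plus strand: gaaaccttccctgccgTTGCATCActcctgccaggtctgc
Slc7a11, chr3:50443637-50443695, minus strand: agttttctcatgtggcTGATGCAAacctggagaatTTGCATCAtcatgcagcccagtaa
The element began 23 bases before the start of Asns, 193 bases before that of Chac1, and 66 and 47 bases before that of Slc7a11, where 1 copy lies in each orientation. A match describes letters only, and the windows of the other genes without one say nothing about binding elsewhere.

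The 23 libraries held 19453295 to 29480499 counts each, and mitochondrial genes took 1.93% to 4.37% of them. All 8 microglia markers were detected in every library, at a summed level of 34069 to 45155 CPM (counts scaled to the library total) in the 12 saline libraries and 19766 to 26464 CPM in the 11 LPS libraries. Markers of other cells were present too. The 9 neutrophil markers summed to 16.03 to 661 CPM in saline and 225 to 751 CPM in LPS libraries, and the 8 monocyte markers to 37.4 to 176 and 161 to 394 CPM. The 9 astrocyte markers summed to 438 to 921 CPM in saline and 238 to 1011 CPM in LPS libraries, and the 10 endothelial markers to 1019 to 3580 and 1284 to 2122 CPM. The 7 border macrophage markers summed to 569 to 1362 and 580 to 1754 CPM, the 6 pericyte markers to 180 to 850 and 188 to 441 CPM, the 8 oligodendrocyte markers to 292 to 5602 and 331 to 1616 CPM, and the 8 neuron markers to 28.1 to 120 and 22.5 to 262 CPM. The 7 T and B lymphocyte markers summed to at most 1.01 CPM. No marker was at 0 in all libraries. Within each region and prenatal group, microglia markers were lower in every LPS library. Neutrophil and monocyte markers were higher, but neutrophil markers overlapped in MIA cortex and monocyte markers in control striatum. In control striatum, endothelial (1991 to 3580 CPM after saline, 1399 to 1521 after LPS) and pericyte markers (512 to 850, 220 to 402) fell. Oligodendrocyte (1350 to 5602, 513 to 1140) and neuron markers (53.0 to 87.3, 22.7 to 27.9) fell there too. In MIA striatum, border macrophage markers rose (571 to 743, 1357 to 1657). The part of these lists in the LPS effects below was not tested. In these bulk samples, fewer cells of a type and less RNA per cell cannot be told apart.

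**Figure D1:**
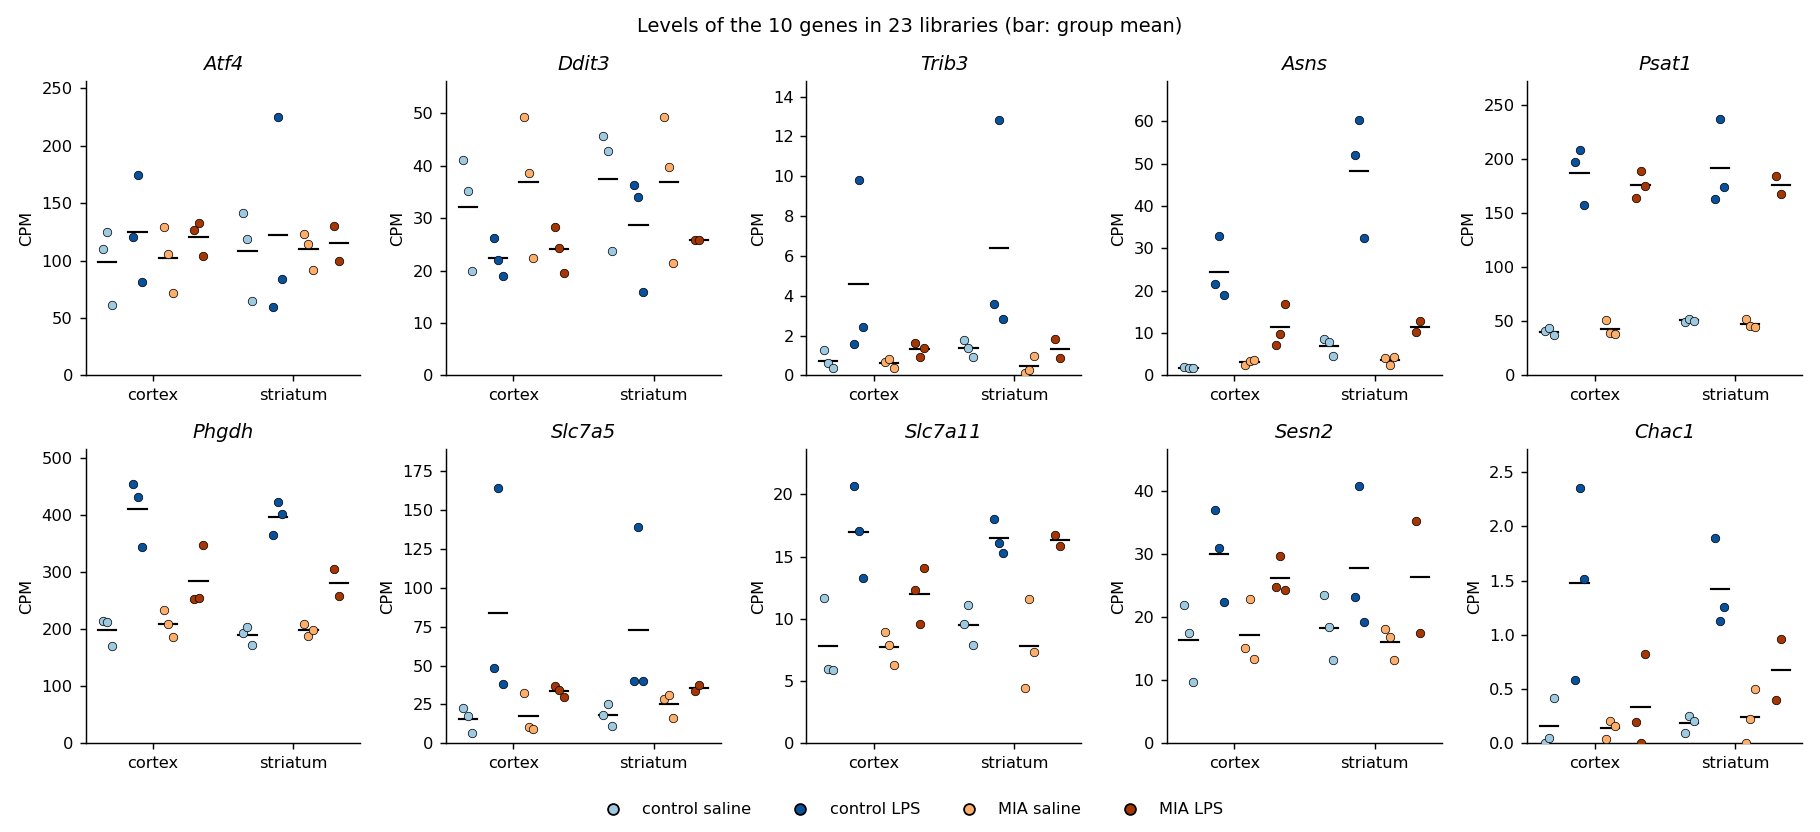
Level of each of the 10 genes in CPM (linear axis from 0) in the 23 libraries, by region on the horizontal axis and by prenatal history and treatment in colour; each point is 1 library and each bar a group mean. Psat1, Asns, Phgdh and Slc7a11 separate all LPS from all saline libraries within each region and prenatal group, while the points of Atf4 overlap. For Slc7a5 and Trib3, 1 control LPS library in each region stands far above the others.

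LPS raised most of the 10 genes, with the synthesis enzymes Asns and Psat1 called in each of the 4 combinations of region and prenatal history, while Atf4 itself was not called in any. The threshold for a call was an adjusted p under 0.05 in edgeR's quasi-likelihood test over all 17139 genes. In control cortex 6 of the 10 genes were called, all higher (10.9% of all tested genes were called higher). In control striatum 5 were called higher (12.7% of all), in MIA cortex 2 (7.05%) and in MIA striatum 3 (6.93%). The LPS libraries lay wholly above the saline libraries for 8 of the 10 genes in control cortex (18.0% of all tested genes), 7 in control striatum (17.6%) and 6 in MIA cortex (14.2%). The same held for 5 in MIA striatum, where only 2 LPS libraries enter (24.3%). These 4 comparisons share no library, but a count that differs between MIA and control is no test of that difference, which is given further on.

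Asns encodes asparagine synthetase, which makes asparagine from aspartate and glutamine. In control cortex it stood at 2.05, 1.67 and 1.64 CPM in the saline libraries and at 21.7, 33.0 and 18.9 CPM in the LPS libraries. In control striatum the saline libraries had 8.60, 7.92 and 4.49 CPM and the LPS libraries 52.0, 60.2 and 32.3 CPM. LPS libraries lay far above saline libraries in both regions. The striatum lay above the cortex after saline, and the regions overlapped after LPS. In MIA cortex the levels were 2.36, 3.28 and 3.58 CPM after saline and 7.25, 9.83 and 16.9 CPM after LPS. In MIA striatum they were 4.07, 2.40 and 4.23 CPM after saline and 10.2 and 12.7 CPM after LPS. The MIA libraries also separated by treatment, but each MIA LPS library lay below every control LPS library of its region.

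On the log2 scale the LPS effect on Asns was 3.77 ± 0.37 (SE, adjusted p = 4.94e-07, edgeR) in control cortex, a 13.7-fold difference. It was 2.78 ± 0.35 (adjusted p = 7.65e-06) in control striatum, 1.88 ± 0.34 (adjusted p = 0.000833) in MIA cortex and 1.68 ± 0.37 (adjusted p = 0.00425) in MIA striatum. The last of these was not called without MIA striatum LPS replicate 2 (adjusted p = 0.0809).

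Psat1 and Phgdh encode consecutive enzymes of serine synthesis from glycolytic intermediates, phosphoserine aminotransferase and phosphoglycerate dehydrogenase. Psat1 moved by almost the same amount everywhere. Its 12 saline libraries lay between 37.0 and 52.7 CPM (median 45.5) and its 11 LPS libraries between 157 and 238 CPM (median 175). No LPS library came near the saline range, in either region or prenatal group. The log2 fold changes were 2.21 ± 0.16 (adjusted p = 1.1e-08, edgeR) in control cortex, 1.91 ± 0.16 (adjusted p = 4.49e-08) in control striatum, 2.04 ± 0.16 (adjusted p = 3.7e-08) in MIA cortex and 1.88 ± 0.17 (adjusted p = 2.37e-07) in MIA striatum. Each is close to a 4.03-fold rise, the value of the LPS effect averaged over the 4 groups.

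Phgdh, the enzyme that commits glycolytic carbon to serine, rose less. Control cortex had 214, 212 and 171 CPM after saline and 455, 433 and 345 CPM after LPS. Control striatum had 194, 204 and 173 CPM after saline and 365, 424 and 402 CPM after LPS. In controls the libraries of the 2 treatments were thus well apart. In MIA cortex the levels were 233, 209 and 186 CPM after saline and 253, 254 and 349 CPM after LPS. In MIA striatum they were 209, 189 and 199 CPM after saline and 305 and 258 CPM after LPS. The MIA libraries did not overlap between treatments either, but the gap was small and MIA cortex LPS replicate 3 stood above the other libraries of its group. The log2 fold changes were 1.05 ± 0.15 (adjusted p = 4.18e-05, edgeR) in control cortex and 1.06 ± 0.15 (adjusted p = 3.21e-05) in control striatum. In MIA cortex and MIA striatum they were 0.45 ± 0.15 (adjusted p = 0.0554) and 0.50 ± 0.16 (adjusted p = 0.0579), just outside the threshold. RSEM gave Phgdh a count that was not whole in 100% of the libraries, so some of its reads were shared with another sequence and its level depends on that split.

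Slc7a5 encodes LAT1, the light chain of an exchanger for large neutral amino acids such as leucine. Its level after LPS in controls rested on 1 library in each region. Control cortex had 22.5, 17.6 and 6.74 CPM after saline and 48.3, 164 and 38.0 CPM after LPS. Control striatum had 18.5, 25.1 and 11.2 CPM after saline and 40.0, 139 and 40.0 CPM after LPS. Replicate 2 was the high library in both regions, and the other control LPS libraries lay close together and still above saline. MIA cortex had 32.3, 10.5 and 9.38 CPM after saline and 37.2, 34.6 and 30.0 CPM after LPS. MIA striatum had 28.6, 31.2 and 16.2 CPM after saline and 33.8 and 37.3 CPM after LPS. The treatments overlapped in MIA cortex and lay just apart in MIA striatum.

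The log2 fold change of Slc7a5 was 2.42 ± 0.61 (adjusted p = 0.00779, edgeR) in control cortex and 2.00 ± 0.60 (adjusted p = 0.0217) in control striatum. Without LPS replicate 2 these became 1.47 ± 0.57 (adjusted p = 0.0934) and 1.13 ± 0.58 (adjusted p = 0.196), and neither was called. In control striatum the call was also lost without saline replicate 1 or saline replicate 3. In MIA cortex and MIA striatum the values were 0.96 ± 0.59 (adjusted p = 0.364) and 0.49 ± 0.64 (adjusted p = 0.734).

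Slc7a11 encodes xCT, which imports cystine in exchange for glutamate and so supplies glutathione synthesis. Over both regions its control saline libraries lay between 5.85 and 11.7 CPM and its control LPS libraries between 13.3 and 20.7 CPM. The MIA saline libraries lay between 4.43 and 11.6 CPM and the MIA LPS libraries between 9.58 and 16.7 CPM. Treatments did not overlap within any region and prenatal group, although the gaps were narrow. The log2 fold change was 1.11 ± 0.31 (adjusted p = 0.0149, edgeR) in control cortex and 1.06 ± 0.34 (adjusted p = 0.0486) in MIA striatum. It was 0.79 ± 0.31 (adjusted p = 0.0755) in control striatum and 0.64 ± 0.31 (adjusted p = 0.215) in MIA cortex. The control cortex call was lost without LPS replicate 1, saline replicate 2 or saline replicate 3 (highest adjusted p = 0.0814). The MIA striatum call was lost in 4 of the 5 fits that left out 1 of its libraries (highest adjusted p = 0.233). It was also lost with DESeq2's size factors (adjusted p = 0.0586, edgeR), without the filter (0.0567), with the excluded library added back (0.151) and with only the compared groups fitted (0.135).

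Atf4 RNA differed little between treatments. Control cortex had 110, 125 and 60.9 CPM after saline and 120, 174 and 81.6 CPM after LPS, and control striatum 141, 118 and 64.9 CPM after saline and 59.3, 225 and 84.0 CPM after LPS. MIA cortex had 129, 106 and 71.9 CPM after saline and 126, 132 and 104 CPM after LPS, and MIA striatum 124, 114 and 92.0 CPM after saline and 131 and 99.8 CPM after LPS. The treatments overlapped in all 4 cases, and the libraries of a group differed more from each other than the group means did. The 4 log2 fold changes ran from 0.07 ± 0.44 in MIA striatum to 0.35 ± 0.40 in control cortex (adjusted p = 0.642 for the latter, edgeR). Their average was 0.21 ± 0.20 (95% confidence interval -0.23 to 0.64, adjusted p = 0.466), so a rise of the averaged level up to the upper end of that interval was not excluded.

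Ddit3 encodes CHOP, a transcription factor of prolonged endoplasmic reticulum stress that ATF4 induces. It was the one gene of the 10 whose level was lower after LPS in all 4 combinations. Control cortex had 41.1, 35.1 and 19.9 CPM after saline and 26.3, 22.1 and 19.02 CPM after LPS, and control striatum 45.7, 42.7 and 23.8 CPM after saline and 36.4, 34.0 and 16.0 CPM after LPS. MIA cortex had 49.4, 38.7 and 22.3 CPM after saline and 28.4, 24.3 and 19.4 CPM after LPS, and MIA striatum 49.3, 39.7 and 21.5 CPM after saline and 25.8 and 25.7 CPM after LPS. Replicate 3 of each saline group lay within or below the LPS range, and the other saline libraries lay above it. Within a region and prenatal group none of the differences was called, with log2 fold changes from -0.61 ± 0.36 in MIA cortex to -0.38 ± 0.36 in control striatum. Averaged over the 4 groups the difference was -0.51 ± 0.18 (95% confidence interval -0.90 to -0.11, adjusted p = 0.0363, edgeR), and 16.9% of all tested genes were called lower in that comparison. This call was lost in 9 of the 23 fits that left out 1 library, with adjusted p up to 0.0745.

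In MIA cortex, saline and LPS libraries of the same number deviated together (correlations 0.124 to 0.315), but the labels state no pairing. The fit with replicate number as a block gives each number a common effect over all 8 groups. As an alternative to the main fit, it called 4 of the 10 genes in place of 2 (13.5% of all tested genes). Ddit3 was then lower by LPS at -0.55 ± 0.16 (adjusted p = 0.0287, edgeR with the replicate block), and Phgdh was higher at 0.46 ± 0.15 (adjusted p = 0.0470). Averaged over the 4 combinations, Ddit3 was lower at -0.53 ± 0.08 in that fit (adjusted p = 4.32e-05, edgeR with the replicate block). There, 6862 of the 17139 tested genes were called in either direction. What the number stands for is not in the labels.

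Trib3 encodes a pseudokinase that ATF4 and CHOP induce and that restrains them in turn. Control cortex had 1.25, 0.609 and 0.374 CPM after saline and 1.60, 9.81 and 2.42 CPM after LPS. Control striatum had 1.79, 1.36 and 0.938 CPM after saline and 3.61, 12.8 and 2.84 CPM after LPS. As for Slc7a5, replicate 2 of the control LPS groups was the high library in both regions. MIA cortex had 0.673, 0.821 and 0.358 CPM after saline and 1.64, 0.912 and 1.37 CPM after LPS. MIA striatum had 0.133, 0.296 and 0.959 CPM after saline and 1.82 and 0.878 CPM after LPS. These are low levels, from as few as 3 counts in a library. The log2 fold change was 2.61 ± 0.78 (adjusted p = 0.0224, edgeR) in control cortex and 2.23 ± 0.75 (adjusted p = 0.0400) in control striatum. Without LPS replicate 2 it was 1.42 ± 0.74 (adjusted p = 0.237) and 1.24 ± 0.76 (adjusted p = 0.291). The control cortex call was also lost without saline replicate 2 or 3, and the control striatum call without any 1 of its saline libraries. With only the compared groups fitted the first had an adjusted p of 0.0537 (edgeR), and with the excluded library added back the second had 0.0567. In MIA cortex and MIA striatum the values were 1.09 ± 0.76 (adjusted p = 0.446) and 1.52 ± 0.83 (adjusted p = 0.316).

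The 2 libraries that were high in Slc7a5 and Trib3, replicate 2 of control cortex LPS and of control striatum LPS, also had the highest Atf4 levels of all 23 libraries, 174 and 225 CPM. Their mitochondrial share was 3.68% and 4.37%. The labels do not say whether they came from 1 animal, and the part of RNA quality in their values was not tested. With both left out, the LPS effect averaged over the 4 groups was 1.01 ± 0.23 (adjusted p = 0.00202, edgeR) for Slc7a5, 1.32 ± 0.34 (adjusted p = 0.00471) for Trib3 and -0.06 ± 0.16 (adjusted p = 0.804) for Atf4.

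Sesn2 encodes sestrin 2, a leucine-binding protein that lowers mTORC1 activity. Its 12 saline libraries lay between 9.78 and 23.5 CPM (median 17.2) and its 11 LPS libraries between 17.5 and 40.9 CPM (median 24.8). The treatments were apart in both cortex comparisons and overlapped in both striatum comparisons. No single comparison was called, with log2 fold changes from 0.60 ± 0.34 in control striatum to 0.87 ± 0.34 in control cortex (adjusted p = 0.0822, edgeR). The averaged effect was 0.70 ± 0.17 (adjusted p = 0.00272).

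Chac1 encodes an enzyme that degrades glutathione and is induced by ATF4. It was barely detected in saline libraries, at 0 to 0.497 CPM, and it reached 0.581 to 2.35 CPM in the 6 control LPS libraries and 0 to 0.961 CPM in the 5 MIA LPS libraries. Its highest count was 57. In 3 libraries it had a count of 0, which allows up to 0.125, 0.133 and 0.152 CPM in control cortex saline replicate 1, MIA striatum saline replicate 1 and MIA cortex LPS replicate 2 (3 counts, counting error only). The control libraries did not overlap between treatments and the MIA libraries did. The log2 fold changes were 3.20 ± 1.28 (adjusted p = 0.0951, edgeR) in control cortex and 2.91 ± 1.26 (adjusted p = 0.112) in control striatum. For the MIA groups they were 1.31 ± 1.24 in cortex and 1.46 ± 1.30 in striatum. DESeq2 called Chac1 in control cortex (adjusted p = 0.0290) and control striatum (adjusted p = 0.0451). In edgeR, control cortex was called without saline replicate 3 (adjusted p = 0.0329) and control striatum with only the compared groups fitted (adjusted p = 0.0285). The averaged effect was 2.22 ± 0.63 (adjusted p = 0.00806).

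**Figure D2:**
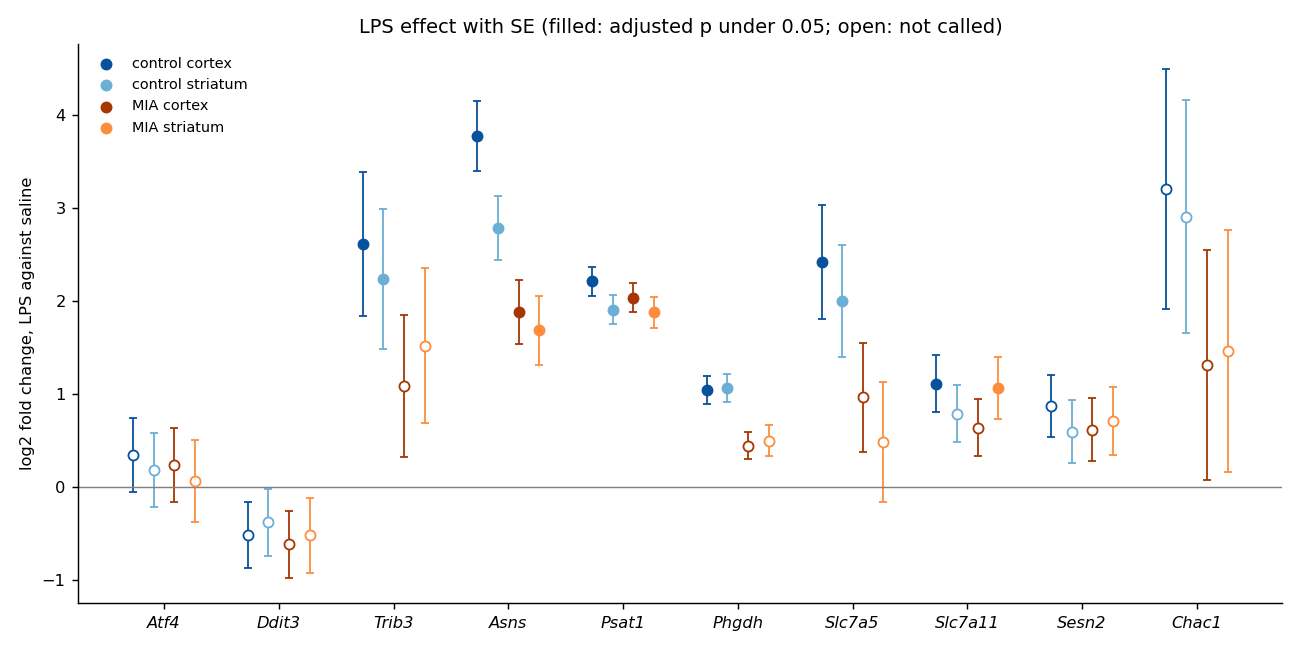
LPS effect on each gene as log2 fold change (vertical axis, LPS against saline) with its standard error, in control and MIA cortex and striatum; filled points were called at an adjusted p under 0.05 and open points were not. Asns and Psat1 are filled in all 4 combinations, Ddit3 lies below 0 throughout and the bars of Chac1 are the widest, with SE from 1.24 to 1.30.

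Averaged over the 4 combinations, 8 of the 10 genes were called higher after LPS (20.7% of all tested genes), Ddit3 was called lower and Atf4 was not called. The averaged log2 fold changes that were called higher ran from 0.70 ± 0.17 for Sesn2 to 2.53 ± 0.18 for Asns (adjusted p = 5.12e-10, edgeR). Between them lay Phgdh at 0.76 ± 0.08, Slc7a11 at 0.90 ± 0.16, Slc7a5 at 1.47 ± 0.30, Trib3 at 1.86 ± 0.39, Psat1 at 2.01 ± 0.08 and Chac1 at 2.22 ± 0.63. The standard errors separate Psat1 and Asns from Phgdh and Sesn2, while the intervals of Trib3 (1.03 to 2.69) and Chac1 (0.87 to 3.57) span much of that range.

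In saline-treated mice the 10 genes gave no call for MIA in either region, and no gene of the 17139 was called there in edgeR's test (0% in each region). At an unadjusted p under 0.05 there were 921 genes in cortex (5.37% of all tested genes) and 842 in striatum (4.91%). DESeq2 called 2 and 1 genes. Of the 10, Asns alone had libraries that did not overlap. MIA cortex lay above control cortex (2.36 to 3.58 against 1.64 to 2.05 CPM), with a log2 difference of 0.78 ± 0.35 (adjusted p = 0.919, edgeR). MIA striatum lay below control striatum (2.40 to 4.23 against 4.49 to 8.60 CPM), with a difference of -0.97 ± 0.34 (adjusted p = 0.918). In cortex the endothelial markers were also higher in every MIA library (1614 to 1920 against 1036 to 1427 CPM). So were the pericyte markers (358 to 413 against 180 to 294 CPM) and the monocyte markers (112 to 170 against 82.7 to 99.9 CPM). The microglia markers were lower (34369 to 40472 against 41499 to 45155 CPM). In striatum the neuron markers were lower in every MIA library (28.1 to 47.1 against 53.0 to 87.3 CPM). Their part in the Asns values was not tested. A separation of the libraries was seen upward in 7.04% of all tested genes in cortex and downward in 6.75% in striatum. The log2 differences of the other 9 genes lay between -0.29 and 0.20 in cortex and between -1.53 (Trib3, SE 0.77) and 0.47 (Slc7a5, SE 0.59) in striatum.

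After LPS, MIA libraries had lower levels than control libraries for several of the 10 genes, and 1 of these differences was called. Asns averaged 11.5 ± 1.81 CPM (SD, n = 2) in MIA striatum and 48.2 ± 14.3 CPM (n = 3) in control striatum, a log2 difference of -2.07 ± 0.39 (adjusted p = 0.0364, edgeR). The control mean was 4.20 times the MIA mean by the fitted fold change. In that comparison 0.105% of all tested genes were called lower. The border macrophage markers went the other way, at 1357 and 1657 CPM in MIA striatum LPS and 580, 603 and 881 CPM in control striatum LPS. Their part in the Asns difference was not tested. The Asns call was lost without either library of MIA striatum LPS or without control striatum LPS replicate 1 or 2 (highest adjusted p = 0.739), and with only the compared groups in the fit (adjusted p = 0.160). With the library marked as excluded added back, the difference was -0.99 ± 0.46 (adjusted p = 0.525). Litters are not given in the labels, so MIA and litter cannot be told apart.

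In cortex the same difference in Asns was -1.11 ± 0.33 (adjusted p = 0.486, edgeR), from 24.5 ± 7.48 to 11.3 ± 4.97 CPM (SD, n = 3 and 3). No gene was called in this comparison by edgeR (0%), 837 genes (4.88% of all) had an unadjusted p under 0.05 and DESeq2 called 57. Phgdh averaged 411 ± 58.4 CPM in control cortex LPS and 285 ± 54.8 CPM in MIA cortex LPS, a difference of -0.53 ± 0.15 (adjusted p = 0.396). In striatum Phgdh averaged 397 ± 30.0 and 281 ± 33.5 CPM, a difference of -0.50 ± 0.17 (adjusted p = 0.337). Both Phgdh differences were of like size, and the cortical one was called without MIA cortex LPS replicate 3 (-0.69 ± 0.15, adjusted p = 0.0433). That library had the highest summed neuron markers of all 23, 262 CPM against at most 120 CPM in the others. Its mitochondrial share was 4.31%, and it had the highest Asns and Phgdh of its group. Of its group it was also highest in oligodendrocyte (1616 CPM against 331 and 363) and astrocyte markers (906 against 373 and 433). The same held for pericyte (441 against 258 and 230) and endothelial markers (2122 against 1381 and 1527), and by less for monocyte markers. Its microglia markers were the lowest of all 23 (19766 CPM), and its border macrophage and neutrophil markers the lowest of its group. The part of RNA from other cells or of RNA quality in these values was not tested.

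Psat1 had close levels in both prenatal groups after LPS. It averaged 188 ± 26.8 CPM in control and 176 ± 12.8 CPM in MIA cortex, and 192 ± 40.3 and 176 ± 11.5 CPM in striatum. The log2 differences were -0.09 ± 0.15 (95% confidence interval -0.41 to 0.23) and -0.12 ± 0.17 (-0.48 to 0.24), which leaves room for differences of that width. Slc7a5 differed by -1.30 ± 0.59 in cortex (adjusted p = 1.00, edgeR) and by -1.04 ± 0.67 in striatum (adjusted p = 0.692), with the high replicate 2 libraries on the control side. Trib3 differed by -1.81 ± 0.75 (adjusted p = 0.938) and -2.24 ± 0.88 (adjusted p = 0.438), with the same libraries high. Atf4 (-0.05 ± 0.40 and -0.09 ± 0.44) and Ddit3 (0.10 ± 0.36 and -0.16 ± 0.40) had differences smaller than their standard errors. In cortex, Asns and Slc7a5 were lower in every MIA library than in every control library (5.15% of all tested genes). In striatum, with 2 MIA libraries, the same held for Asns, Trib3, Chac1, Phgdh and Slc7a5 (10.6% of all).

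**Figure D3:**
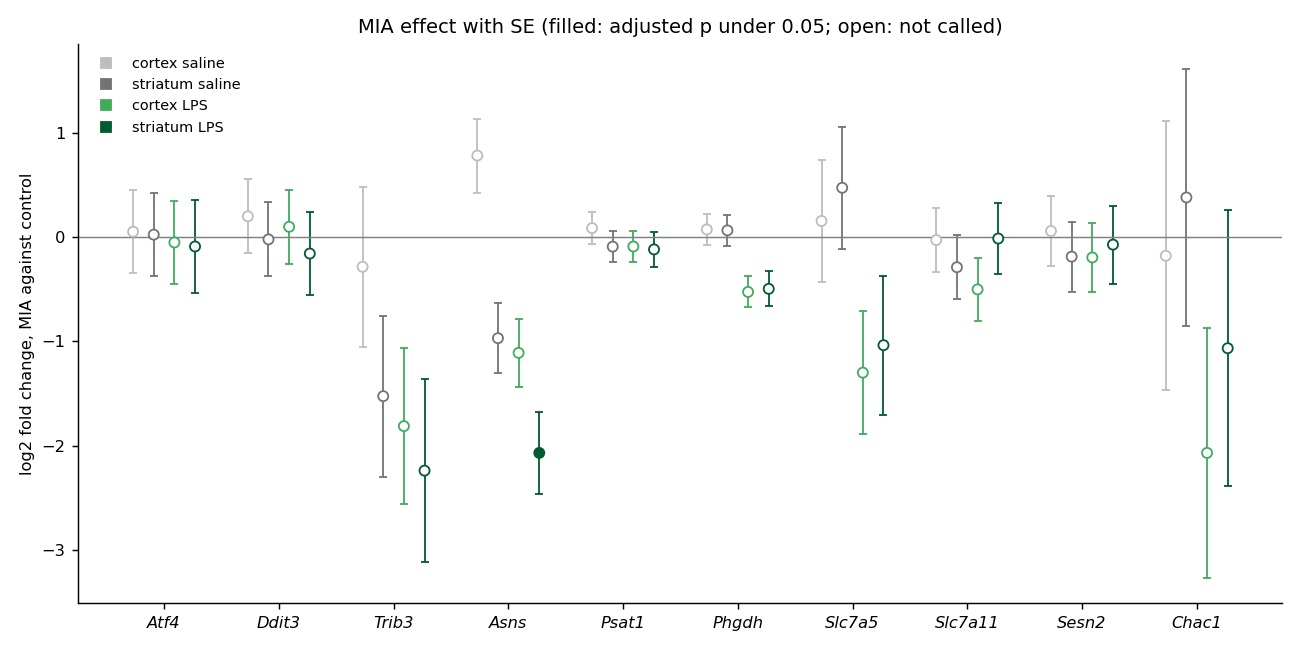
MIA effect on each gene as log2 fold change (vertical axis, MIA against control) with its standard error, for cortex and striatum after saline (grey) and after LPS (green); filled points were called at an adjusted p under 0.05. The single filled point is Asns in striatum after LPS at -2.07, and Psat1, Atf4, Ddit3 and Sesn2 lie near 0 in all 4 comparisons.

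Whether LPS acted differently in MIA and control mice is the interaction of prenatal history and treatment. None of the 10 genes was called for it in cortex, in striatum or averaged over the regions, and 0%, 0% and 0.0175% of all tested genes were (edgeR). At an unadjusted p under 0.05 it gave 744 genes in cortex (4.34% of all) and 1323 in striatum (7.72%), and DESeq2 called 1 and 36. Averaged over regions, the LPS effect in MIA minus that in control was -1.50 ± 0.35 on the log2 scale for Asns (adjusted p = 0.114), -0.58 ± 0.15 for Phgdh (adjusted p = 0.192) and -1.48 ± 0.61 for Slc7a5 (adjusted p = 0.443). For Psat1 it was -0.10 ± 0.16, and for Slc7a11, Sesn2, Atf4 and Ddit3 it lay between -0.12 and -0.07. Trib3 had -1.12 ± 0.78 and Chac1 -1.67 ± 1.27. All 10 values lay below 0, with a median of -0.35 beside -0.03 over all tested genes. The 10 genes share libraries and were chosen with results in view, so their shared sign is no test. The Asns interaction was called by DESeq2 (-1.49 ± 0.37, adjusted p = 0.0123), without the filter on low counts (-1.48 ± 0.33, adjusted p = 0.0359) and without MIA cortex LPS replicate 3 (-1.71 ± 0.33, adjusted p = 0.0144). The Phgdh interaction was called by DESeq2 (adjusted p = 0.0407) and without that library (adjusted p = 0.0316). Without both high control LPS libraries, the interaction was -1.26 ± 0.35 for Asns (adjusted p = 0.206), -0.54 ± 0.16 for Phgdh (adjusted p = 0.251), -0.57 ± 0.47 for Slc7a5 and -0.03 ± 0.79 for Trib3. The values of Slc7a5 and Trib3 thus rested on those libraries, and those of Asns and Phgdh moved little. In the same fit Atf4 (0.43 ± 0.32), Sesn2 (0.13 ± 0.34) and Psat1 (0.03 ± 0.14) lay above 0 and the rest below. The sign shared by all 10 genes thus rested on those libraries too.

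Between regions, Asns was the single gene of the 10 that was called. After saline it was higher in striatum than in cortex by 1.09 ± 0.25 on the log2 scale, averaged over prenatal groups (adjusted p = 0.0326, edgeR, with 0.770% of all tested genes called higher). The separation lay in the controls, where striatum libraries had 4.49 to 8.60 CPM and cortex libraries 1.64 to 2.05 CPM. The MIA libraries overlapped, at 2.40 to 4.23 CPM in striatum and 2.36 to 3.58 CPM in cortex. Cell type markers also differed between the regions in controls. The oligodendrocyte markers summed to 5602, 4228 and 1350 CPM in libraries 1, 2 and 3 of control striatum saline and to 292 to 486 CPM in control cortex saline. Endothelial markers summed to 1991 to 3580 against 1036 to 1427 CPM and pericyte markers to 512 to 850 against 180 to 294 CPM. Astrocyte markers summed to 641 to 921 against 438 to 560 CPM. Microglia markers were lower in striatum, at 34069 to 39295 against 41499 to 45155 CPM. So were border macrophage markers, at 569 to 669 against 991 to 1362 CPM. The part of these lists in the regional difference was not tested. The call was lost in 10 of the 12 fits that left out 1 saline library, with adjusted p up to 0.101, and with the excluded library added back (adjusted p = 0.158). After LPS the regional difference in Asns was 0.49 ± 0.24 (adjusted p = 0.833). None of the 10 was called after LPS, where 0.0467% of all tested genes were called. None was called for a regional difference in the LPS effect (0% of all by edgeR, 10 genes by DESeq2). There, 873 genes (5.09% of all) had an unadjusted p under 0.05.

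Genes around the 10 were counted from 9 lists of the ATF4 response and of related pathways. The lists were chosen with earlier results of these data known, so their counts describe these libraries and are no independent support. The counts are for the LPS effect averaged over the 4 combinations, in which 20.7% of all tested genes were called higher and 16.9% lower. The cytosolic aminoacyl-tRNA synthetases, which load amino acids onto tRNA, were called higher in 20 of 20 cases, with a median log2 fold change of 0.92 beside -0.04 over all tested genes. Farsb rose by 1.24 ± 0.07, Mars1 by 1.18 ± 0.07 and Gars1 by 1.14 ± 0.07 (highest adjusted p = 6.95e-11, edgeR). In single combinations 19, 18, 16 and 17 of the 20 were called higher in control cortex, control striatum, MIA cortex and MIA striatum, and the last fell to 10 without MIA striatum LPS replicate 2.

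Of 10 serine and one-carbon enzymes, 8 were called higher and none lower, with a median of 1.02. Several act in the mitochondrial and cytosolic folate cycles, which take their one-carbon units from serine. Mthfd2, a mitochondrial folate enzyme, rose from 11.97 ± 4.25 to 119 ± 31.7 CPM in control cortex (SD, n = 3 and 3) and by 2.54 ± 0.20 on average (adjusted p = 3.2e-09, edgeR). Shmt2, which splits serine in mitochondria, rose by 1.78 ± 0.09, and Mthfd1l, of the same cycle, by 1.47 ± 0.11.

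Among 16 other ATF4 target genes that were tested, 6 were called higher, 2 lower and 8 were not called, with a median of 0.14. Fgf21 and Stc2, which belong to the list, were too low to be tested. The called genes with the smallest adjusted p were Eif4ebp1, a repressor of cap-dependent translation, at 1.96 ± 0.11, and the proline synthesis genes Aldh18a1 at 1.80 ± 0.11 and Pycr1 at 2.28 ± 0.23. Aldh18a1 averaged 126 ± 27.4 CPM in control and 58.0 ± 0.84 CPM in MIA striatum (log2 difference -1.12 ± 0.25, adjusted p = 0.077, edgeR), and its averaged interaction was -1.02 ± 0.22 (adjusted p = 0.077). Eif4ebp1 averaged 119.5 ± 27.1 CPM and 66.3 ± 5.08 CPM in the same groups (-0.85 ± 0.24, adjusted p = 0.198). Its interaction was -0.93 ± 0.21 (adjusted p = 0.11), and for Pycr1 it was -0.22 ± 0.44. No gene of the 9 lists was called in any comparison for MIA, its interaction with LPS or region.

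Of 15 other amino acid transporters, 6 were called higher, 1 lower and 8 were not called, with a median of 0.36. Slc1a4 and Slc1a5, exchangers for small neutral amino acids and glutamine, rose by 1.83 ± 0.17 and 1.82 ± 0.18, and Slc7a6, a transporter of basic and neutral amino acids, by 1.23 ± 0.09. Of 12 genes for eIF2 kinases, eIF2 subunits, its exchange factor and its phosphatases, 6 were called higher and none lower, with a median of 0.29. Eif2s1, the subunit that is phosphorylated, rose by 1.18 ± 0.08, Eif2b3 of the exchange factor by 1.08 ± 0.11 and Eif2ak2, the kinase PKR that is also an interferon target, by 0.89 ± 0.15. Of 6 other transcription factors of the response, 3 were called higher, 1 lower and 2 were not called. Nupr1 rose by 1.13 ± 0.12, Jdp2 by 0.86 ± 0.28 and Atf5 by 0.80 ± 0.26, and without both high control LPS libraries 1 of the 6 was called higher.

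Of 16 other genes of the unfolded protein response, 13 were called higher and none lower, with a median of 0.81. Sdf2l1, Manf and Creld2, which encode proteins of the endoplasmic reticulum, rose by 1.49 ± 0.14, 1.39 ± 0.09 and 1.21 ± 0.12. Ddit3, which belongs to that response, did not rise with them. Of 12 glutathione and NRF2 target genes, 8 were called higher and none lower, with a median of 0.60, among them Txnrd1 (thioredoxin reductase) at 1.03 ± 0.10, Ggct at 0.90 ± 0.16 and G6pdx (glucose-6-phosphate dehydrogenase) at 0.68 ± 0.07. Of 15 mTORC1 amino acid sensing genes, 2 were called higher and 4 lower, with a median of -0.18, and with DESeq2's size factors 1 was called higher. Sesn1, a paralogue of Sesn2, fell by 1.05 ± 0.10 on the log2 scale and Rptor, the scaffold of mTORC1, by 0.85 ± 0.11, while Rheb, its activator, rose by 0.34 ± 0.08.

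**Figure D4:**
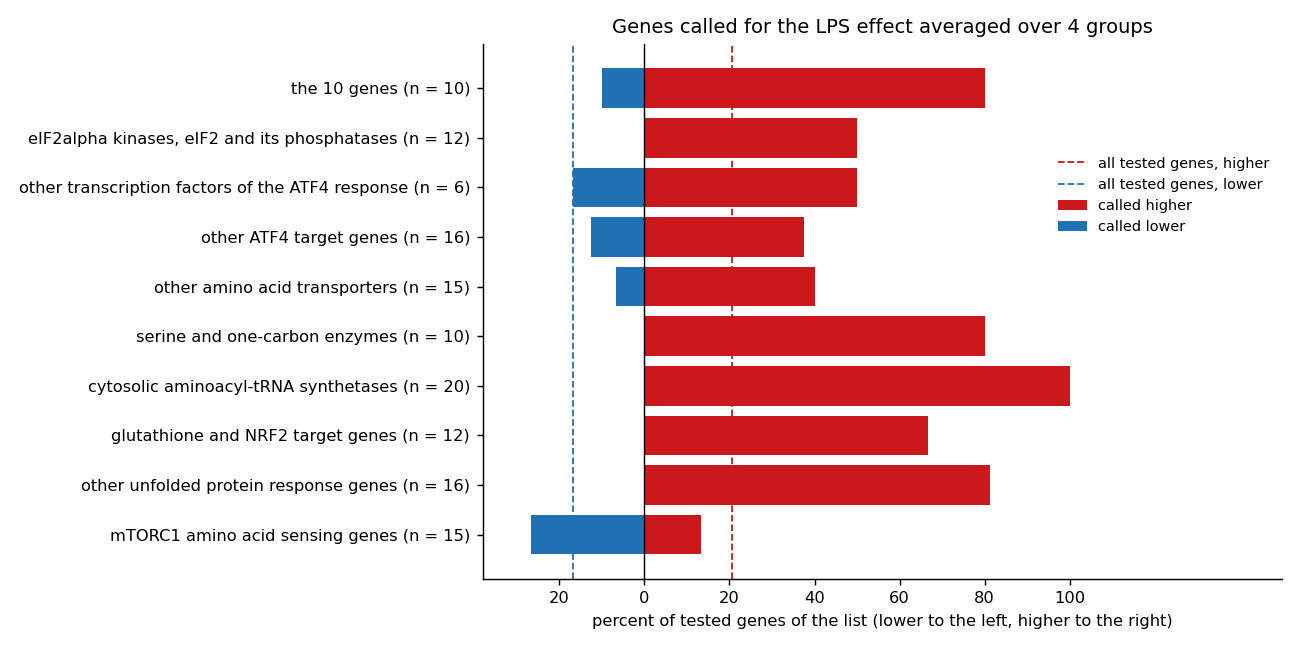
Share of the tested genes of each list (horizontal axis, percent) that were called higher (right, red) or lower (left, blue) for the LPS effect averaged over 4 groups; dashed lines give the shares over all 17139 tested genes, 20.7% and 16.9%. The tRNA synthetases reach 100% higher, and the mTORC1 sensing genes lie below the dashed line on the right and beyond it on the left. The row of the 10 genes is shown for scale. Both the 10 genes and the lists were chosen with earlier results of these data known.

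The patterns of the 10 genes across the 23 libraries were compared with those of all tested genes by the root mean square difference of z-scored log2 CPM, in which 0 is an identical pattern. Nearest to Asns were Aldh18a1 (0.31), Mthfd2 (0.37) and Cars (0.37). Nearest to Phgdh were Tubb5 (0.30), Aldh18a1 (0.30) and Ogfr (0.30), and nearest to Psat1 were Gsto1 (0.17), Eef1akmt4 (0.19) and Srgn (0.19). The patterns of these 3 enzymes were thus matched closely by other genes. Slc7a5 was nearest to Polr1d (0.35), Tardbp (0.36) and Polr2h (0.37), and Slc7a11 to Slc2a6, Ctla2a and Coq7 (each 0.49). Trib3 was nearest to Rsl24d1 (0.55), Gm4070 (0.56) and Gars, named Gars1 above (0.57), Sesn2 to Surf6 (0.52), Tuba1c (0.55) and Ddx31 (0.56), and Chac1 to BC048403 (0.46), Rsad2 (0.55) and Ifi35 (0.58). Atf4 was nearest to Eef1a1 (0.39), Rpl10-ps3 (0.43) and Eif1b (0.46), and Ddit3 to Ppp2r2d (0.50), Evi5 (0.56) and Rit1 (0.57). The closest of the other 9 genes came at rank 6 for Trib3 (Asns), 64 for Chac1 (Asns), 75 for Asns (Phgdh), 405 for Atf4 (Sesn2), 571 for Psat1 (Phgdh) and 2758 for Ddit3 (Atf4). For Slc7a11, Sesn2, Slc7a5 and Phgdh it came at ranks 142, 171, 196 and 208.

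The number a library carries went with the level of some of these genes. In the 7 groups with 3 libraries, replicate 3 had the lowest level of Ddit3, Sesn2 and Slc7a5 in 7 of 7 groups and of Atf4 in 6 of 7, and replicate 1 had the highest Ddit3 in 7 of 7. Replicate 3 also had the lowest mitochondrial share in 6 of 7 groups and the highest total count in 5 of 7. For Asns, Psat1 and Phgdh, replicate 3 was lowest in 4 of 7 groups each. The labels do not say what the number stands for, and its part in the levels was not tested beyond the fits with the number as a block.

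**Figure D5:**
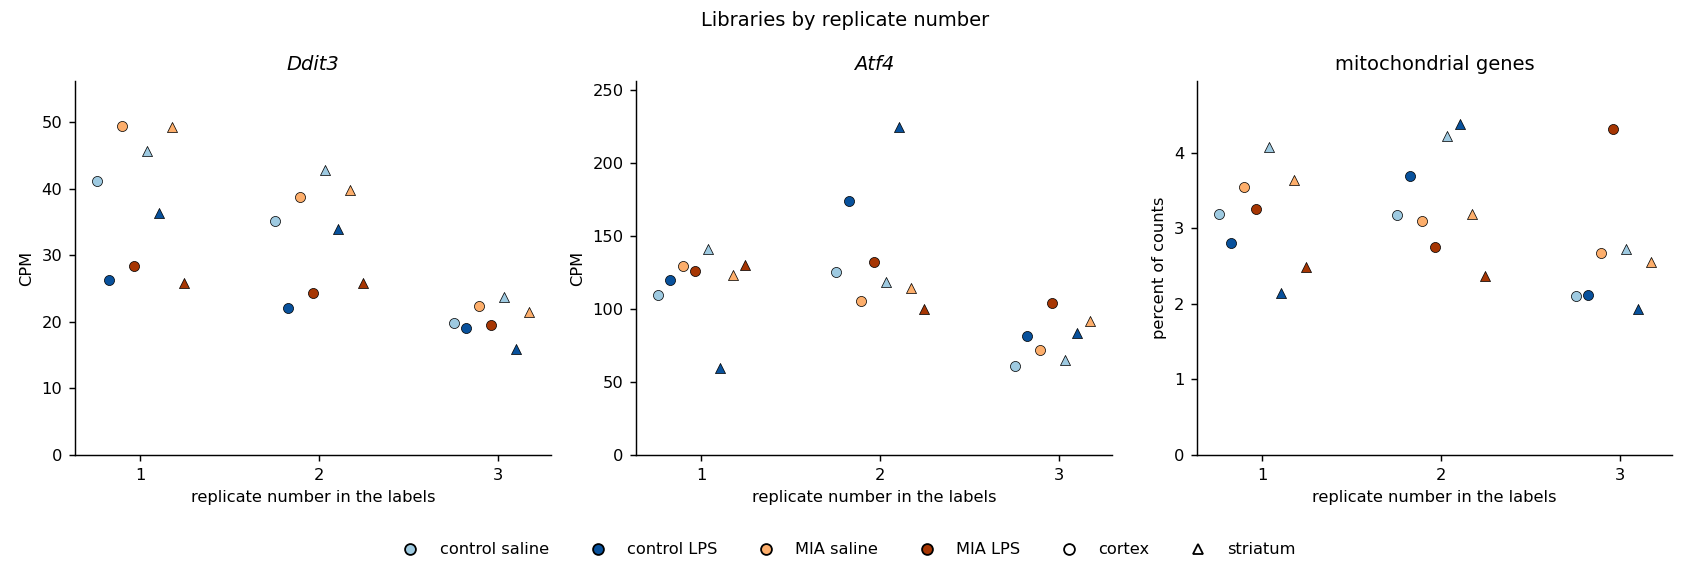
Ddit3 and Atf4 in CPM and the mitochondrial share of counts in percent (vertical axes from 0) against the replicate number in the labels, 1 point per library, with colour for prenatal history and treatment and shape for region. Ddit3 is lowest in replicate 3 of each of the 7 groups with 3 libraries, and the mitochondrial share is lowest there in 6 of 7.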

How the data were processed

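RNA-seq libraries of CD11b-sorted cells were compared as 8 groups set from the labels. The authors deposited expected counts per gene, and reads had been aligned with STAR and counted with RSEM, and DESeq2 had been used, per the submitters' processing notes. Versions, genome build and annotation are not given in the sources used here. Of the 55487 identifiers, 55141 matched a symbol. Of the 10 genes, Phgdh had counts that were not whole in 100% of libraries, Slc7a11 in 52.2% and the others in 0%. Expected counts were rounded, and no 2 libraries were identical.

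In R 4.3.3, edgeR 4.0.16 kept genes by filterByExpr (minimum count 10, minimum total 15), scaled libraries by TMM and fitted 1 quasi-likelihood model with a term per group to the 23 libraries (15 residual degrees of freedom). The 15 comparisons of that fit were tested on both sides, adjusted by Benjamini and Hochberg within each over all tested genes, and called at an adjusted p under 0.05. SE is the log2 fold change divided by the root of F. CPM use the TMM scaling. The script was tested on simulated data. DESeq2 1.42.0 was an alternative, and the others were its size factors, no filter, the excluded library added back, only the compared groups, the replicate block and each library left out. Leaving out both control LPS libraries numbered 2 was added after seeing the data.

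The 10 genes, the lists and the tests were chosen with earlier results of these data known. The text names the 10 genes, up to 3 called genes per list, taken by smallest adjusted p in the averaged LPS effect, and the 3 genes nearest in pattern to each of the 10. The labels do not say that replicates are separate animals, so the p-values refer to the spread among these samples, which may be technical. Same-numbered libraries of 2 groups had correlations of their deviations from -0.200 to 0.315 over 77 pairs. All 3 pairs were over 0.1 for saline and LPS of MIA cortex (0.124 to 0.315) and for control LPS of cortex and striatum (0.275 to 0.314). These groups were picked out by those correlations, and the labels do not state a pairing. The block gives each number a common effect over all groups. Slc7a5 had no entry in the promoter table.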

Additional observations from a re-analysis of the deposited data

Results flagged for a closer look

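The library whose title marks it as excluded, MIA striatum LPS replicate 3, entered no comparison of the main analysis and was added back only as an alternative. Scaled with the other 23, it lay above the 3 saline libraries of its prenatal group and region for 7 of the 10 genes, which is what singled these values out. It did so for 37.3% of all tested genes. Asns stood at 48.8 CPM in it, against 2.40 to 4.29 CPM after saline and 10.2 and 12.6 CPM in the other LPS libraries of the group. Psat1 stood at 298 CPM (saline 45.6 to 52.1), Phgdh at 574 CPM (saline 189 to 206) and Chac1 at 2.78 CPM (saline 0 to 0.505), and these 3 were above all 23 libraries used, as were 14.3% of all tested genes. Trib3 stood at 4.46 CPM (saline 0.131 to 0.974), Sesn2 at 23.4 CPM (saline 13.4 to 18.0) and Atf4 at 138 CPM (saline 93.4 to 122). Slc7a5 at 16.2 CPM, Slc7a11 at 7.42 CPM and Ddit3 at 29.7 CPM did not exceed the saline range. Mitochondrial genes took 6.16% of its counts, and the part of RNA quality in these values was not tested.

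Asns in saline-treated mice went opposite ways in the regions. Each MIA cortex library lay above each control cortex library, with a log2 difference of 0.78, and each MIA striatum library lay below each control striatum library, with a difference of -0.97. Neither difference was called, and the difference between the regions was not tested.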

How the results depend on the processing

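Of the 10 genes, the number called was within 1.5 times that of the main analysis except as follows. For the LPS effect in MIA cortex it was 4 with the replicate block, in place of 2. For the MIA effect in striatum after LPS it was 0 with the excluded library added back and 0 with only the compared groups fitted, in place of 1. For the interaction averaged over regions it was 2 by DESeq2 and 1 without the filter, in place of 0. For striatum against cortex after saline it was 0 with the excluded library added back, in place of 1. The cause was not tested. With 1 library left out the number ran from 4 to 6 for LPS in control cortex, 3 to 5 in control striatum, 1 to 3 in MIA striatum and 8 to 9 for the averaged LPS effect. It ran from 0 to 1 for MIA after LPS in cortex and in striatum, 0 to 2 for the averaged interaction and 0 to 1 for the region after saline, and it stayed at 2 for LPS in MIA cortex and at 0 elsewhere. Over the fits that left out 1 library, 1564 fold changes of the 10 genes kept their side of the threshold, 42 lost it and 4 gained it. None that was called reversed.

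Same-numbered control LPS libraries of cortex and striatum deviated together too, but in the labels all groups share only a number. The block is no pairing of particular groups. The replicate block called Chac1 (adjusted p = 0.0381, edgeR) and Sesn2 (adjusted p = 0.0177) in control cortex, Chac1 (0.0473) in control striatum and Ddit3 (-0.71, adjusted p = 0.0155) in MIA striatum, and it lost Trib3 in control striatum (0.0518) and Slc7a11 in MIA striatum (0.0666). It changed no call of the 10 for MIA, the interactions or region.

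Counts over all genes moved by more than 1.5 times in places. With only the compared groups fitted, LPS called 1147 genes in MIA cortex in place of 2039 and 2306 in control striatum in place of 3576, and without a library 758 to 1468 were called in MIA striatum in place of 1755. The MIA effect after LPS called 57, 27 and 13 genes in cortex by DESeq2, without the filter and with the block, in place of 0, and in striatum 221, 81 and 42 in place of 25, with 1 when the excluded library was added back and 0 with only the compared groups. The averaged interaction called 149, 54 and 36 in place of 3, 30 without both high control LPS libraries and 0 with the excluded library. DESeq2 and the unfiltered fit called 608 and 567 genes for region after saline in place of 198, 129 and 73 after LPS in place of 8, and 10 and 13 for its interaction with LPS in place of 0. Low counts limit Chac1 and Trib3, and 2 or 3 libraries a group limit the others.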
